A study of Mus musculus with 4 samples.

Results

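Shox2 and its chromosomal neighbours were taken as the mouse genes Veph1, Ptx3, Shox2, Rsrc1 and Mlf1 on chromosome 3, together with the gene-poor interval between Veph1 and Shox2. Peaks of the 4 ATAC-seq libraries that shared at least 1 bp were merged into regions. A region belonged to the locus when its midpoint lay inside 1 of these genes, or when 1 of them was the nearest protein-coding gene within 500 kb. This gave 26 of 39843 regions. ATAC-seq marks open DNA by the places where a transposase can insert sequencing adapters.

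The cells were green fluorescent palatal mesenchyme sorted from mouse embryos at E14.5, with 50000 cells pooled per group. The 2 control libraries were Shox2Cre/+;Nkx2.5F/F;R26RmTmG and the 2 mutant libraries Shox2Cre/-;Nkx2.5F/F;R26RmTmG. Every group thus carried a Cre recombinase gene at Shox2, which marks the Shox2 lineage, a floxed Nkx2.5 allele on both chromosomes, which Cre can cut, and the R26RmTmG reporter, which turns green after Cre has acted. The control cells keep a single intact Shox2 allele and are not wild type at either gene, although their titles call them WT. Whether the libraries of a genotype came from separate embryos is not given in the labels, so the spread between them may be technical.

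Shox2 encodes a homeobox transcription factor that is known for its roles in the anterior palate, the sinoatrial node of the heart and the proximal limb. Developmental genes of this kind are often controlled by enhancers spread over a neighbouring gene desert, and the interval beside Shox2 is known to hold enhancers of the gene. Rsrc1, which encodes an arginine- and serine-rich protein linked to splicing, starts beside Shox2 and runs away from it, and the gene table gives them a shared stretch of 408 bp. Mlf1, named for myeloid leukaemia factor 1, lies beyond Rsrc1. On the other side of the desert lie Veph1, which encodes a protein with a pleckstrin homology domain, and within it Ptx3, which encodes a secreted pentraxin of innate immunity.

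The open start sites of the locus were those of Rsrc1 and Mlf1, while the start site of Shox2 held no listed peak in any library. The 250 bases before each start site are shown because they separate the members by their calls. The sequences are from RefSeq on GRCm38.p6, the assembly also named mm10, in which all 5 genes had an entry. They read 5′ to 3′ on the gene's strand, and capitals mark CG dinucleotides and the homeodomain core TAATTA.
Shox2, chr3:66981772-66982021, minus strand, no peak in any library: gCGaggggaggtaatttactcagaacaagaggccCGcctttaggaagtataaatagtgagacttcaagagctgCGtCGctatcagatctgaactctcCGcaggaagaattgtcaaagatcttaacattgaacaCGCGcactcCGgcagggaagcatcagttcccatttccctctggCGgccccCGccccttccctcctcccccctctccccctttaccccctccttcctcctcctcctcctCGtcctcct
Rsrc1, the first of 2 start windows, chr3:66985412-66985661, plus strand, a peak in all 4 libraries: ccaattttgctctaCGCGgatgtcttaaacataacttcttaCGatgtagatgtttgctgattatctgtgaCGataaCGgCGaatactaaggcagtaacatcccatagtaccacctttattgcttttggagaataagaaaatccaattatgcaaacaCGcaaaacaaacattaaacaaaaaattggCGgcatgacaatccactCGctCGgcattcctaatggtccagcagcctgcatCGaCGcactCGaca
Mlf1, chr3:67373847-67374096, plus strand, a peak in all 4 libraries: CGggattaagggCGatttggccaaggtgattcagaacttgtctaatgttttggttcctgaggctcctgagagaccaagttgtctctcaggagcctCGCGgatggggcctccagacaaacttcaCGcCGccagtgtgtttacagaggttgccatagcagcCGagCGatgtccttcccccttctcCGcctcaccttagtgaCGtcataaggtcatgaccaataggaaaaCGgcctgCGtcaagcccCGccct
Veph1, chr3:66296838-66297087, minus strand, no peak in any library: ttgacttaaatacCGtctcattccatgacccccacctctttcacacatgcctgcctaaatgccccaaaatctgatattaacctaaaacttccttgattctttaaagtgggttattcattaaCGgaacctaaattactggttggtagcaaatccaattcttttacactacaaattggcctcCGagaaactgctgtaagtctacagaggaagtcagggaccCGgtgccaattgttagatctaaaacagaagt
Ptx3, chr3:66219637-66219886, plus strand, no peak in any library: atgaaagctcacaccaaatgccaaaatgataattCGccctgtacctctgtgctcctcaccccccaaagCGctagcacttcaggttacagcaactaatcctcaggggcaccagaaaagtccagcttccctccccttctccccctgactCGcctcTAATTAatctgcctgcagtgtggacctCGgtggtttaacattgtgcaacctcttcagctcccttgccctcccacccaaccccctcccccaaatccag

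The Shox2 sequence held 11 CG dinucleotides, close to the 13 of the printed Rsrc1 sequence and the 13 of Mlf1. The Veph1 and Ptx3 sequences held 4 each. The second start window of Rsrc1, not printed and also with a peak in all 4 libraries, held 29. Start windows, which add 50 bases after the start, overlapped a region held by all 4 libraries in 51.8% of the 21045 windows of protein-coding genes. Among the 2840 windows whose CG count lay within 2 of that of Shox2, this share was 72.9%, and 83.1% overlapped a region of any library. For the CG count of Veph1 and Ptx3 the share in all 4 libraries was 16.4%. By CG count, the uncalled windows of Veph1 and Ptx3 were thus of a kind that was seldom called, and that of Shox2 of a kind that mostly was. Among the palate and homeobox transcription factor genes described below, 25 had a start window. A region of all 4 libraries overlapped that of 10 of them (40.0%), and a region of any library that of 18. For all protein-coding genes the share in all 4 libraries was 54.0%.

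**Figure D1:**
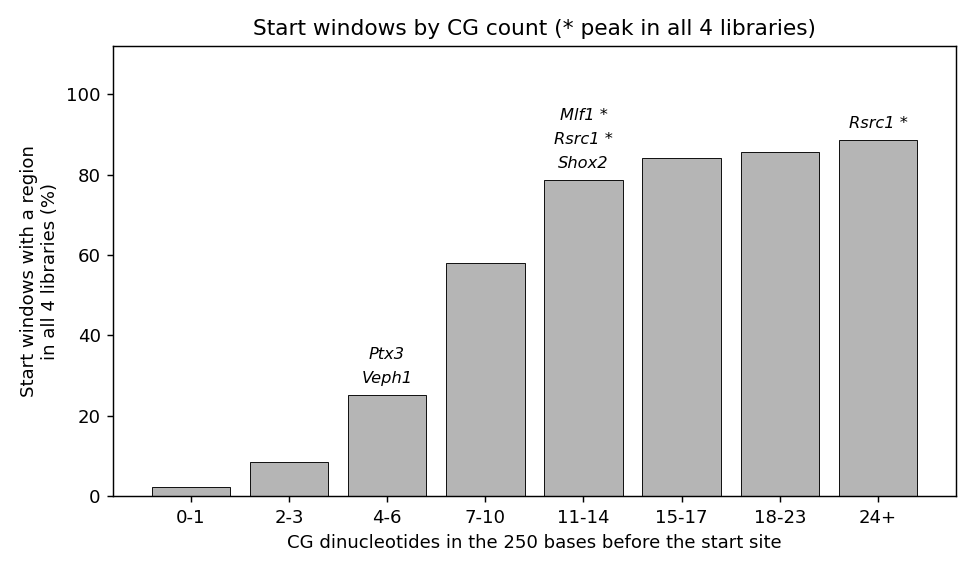
Bars give the percentage of start windows of protein-coding genes that overlap a region held by all 4 libraries, by the number of CG dinucleotides in the 250 bases before the start. Gene names stand over the bin of their own windows, of which Rsrc1 has 2, and an asterisk marks a peak in all 4 libraries. Shox2 shares its bin with the first window of Rsrc1 and with Mlf1 but carries no asterisk.

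A search of both strands for 4 short motifs found TATAAA in the Shox2 sequence, as in 11.7% of all windows, and GGGCGG, as in 43.1%. TAATTA occurred only in the sequence of Ptx3 among the 5 printed, and in 4.24% of all windows. CCAAT occurred in those of Rsrc1, Mlf1 and Veph1, and in 35.6% of all windows. GGGCGG also occurred in that of Mlf1. These matches describe letters and not binding.

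The numbering of the deposited peaks skipped numbers in the stretch around the Shox2 start. Each listed peak keeps a running number along the genome. A jump in the numbers is read here as peaks that were called and left out before deposit. The labels do not state this. How they were selected is not stated. Across the start of Shox2, between the listed peak in the 3′ part of the gene and the one at Rsrc1, the gap was 11.4 kb in control 1, mutant 1 and mutant 2. In that gap 2 numbers were missing in control 1, 4 in mutant 1 and 3 in mutant 2. Gaps of 0.8 to 1.2 times this length in the same list had a median of 0 missing numbers. At least as many were missing in 6.91% of such gaps in control 1, in 0.144% in mutant 1 and in 0.999% in mutant 2. Control 2 listed no peak inside Shox2, and its wider gap of 102 kb lacked 5 numbers, which 40.1% of like gaps reached. Where any left-out peaks lay within these gaps cannot be read from the lists. The start of Shox2 is thus without a listed peak and not shown to be closed. Missing numbers were not particular to Shox2. At the Ptx3 start, control 1 lacked 1 number in a gap of 4.33 kb, which 9.75% of like gaps reached. The other libraries lacked 6 to 7 there in gaps of 88.4 kb, which 11.1% to 26.6% reached. At the Veph1 start each library lacked 1 to 3, which 30.8% to 92.1% reached. The Shox2 gene is altered in all libraries and differs between genotypes (Shox2Cre/+ and Shox2Cre/-). What this does to calls in and around the gene was not tested.

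Within the gene, Shox2 (chromosome 3, 66971723 to 66981771) had a single region, 66973378 to 66974132, in its 3′ part. Its rank is given here as the percentile of its deposited score among all peaks of the same list, where 100 is the strongest. The percentile was 45.8 in control 1, 25.1 in mutant 1 and 44.9 in mutant 2, and control 2 had no call. Summits of the 3 peaks fell within 59 bp of each other. The genotypes overlapped, since a control library was both the highest and the one without a call.

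**Figure D2:**
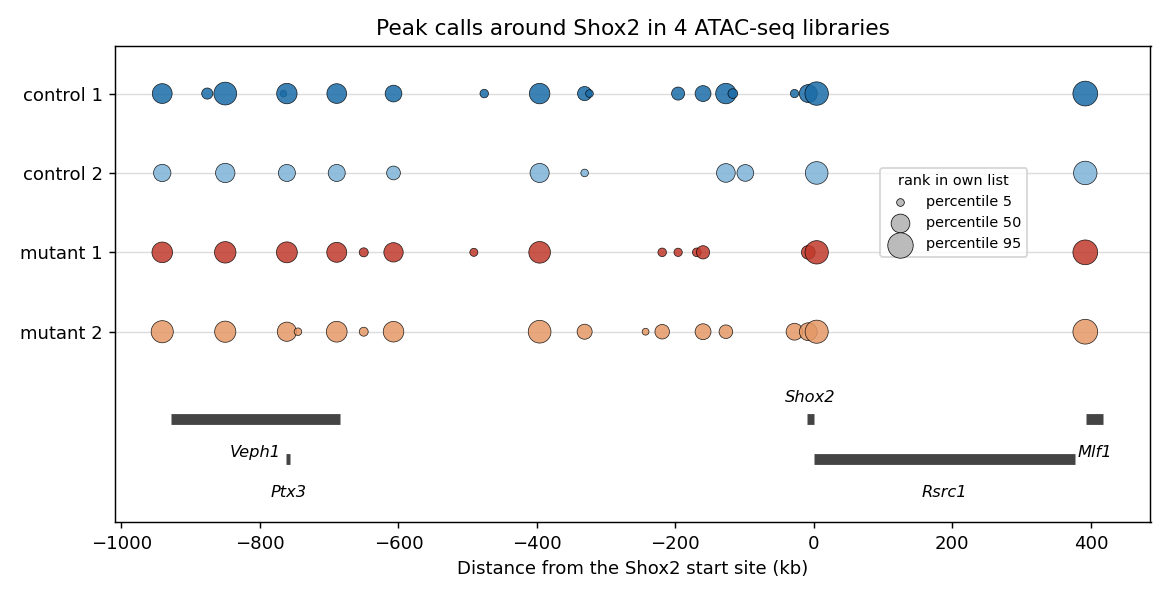
Each circle is a listed peak, placed by its distance in kb from the Shox2 start site, with negative values on the 3′ side of Shox2, and sized by its percentile in its own list. Gene spans are drawn below. The larger circles at Veph1, Ptx3, Rsrc1 and Mlf1 line up over the 4 libraries, those between the −396 kb region and the Rsrc1 start do not, and the span of Rsrc1 is empty beyond its start.

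Around Shox2 the regions were many and their calls varied between libraries. Rsrc1 begins inside Shox2, so a region before the Shox2 start counts for Rsrc1. Only Shox2 itself and its 3′ side are therefore counted for Shox2. Inside or nearest the gene lay 12 regions, and 0 of them were held by all 4 libraries. Of these, 4 were held by 3 libraries, 3 by 2 libraries and 5 by a single library. The other members together had 14 regions, of which 8 were held by all 4 libraries, 1 by 2 libraries and 5 by a single library. Among all regions 47.4% were held by all 4 libraries and 23.9% by a single library. For regions between 100 and 500 kb from the nearest gene, as 9 of the 12 are, the corresponding shares were 27.7% and 34.1%.

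Counted by library, the regions nearest Shox2 were 8 for control 1, 3 for control 2, 5 for mutant 1 and 7 for mutant 2. Control 2 also had the shortest list, with 22966 peaks against 29225 to 31832 in the others. The genotypes overlapped in this count. The absences did not rest on control 2 alone: without control 2, 2 of the regions nearest Shox2 were held by all remaining libraries, likewise 2 without mutant 1, and 0 without control 1 or without mutant 2.

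The strongest region nearest Shox2 lay 117 kb beyond the 3′ end of the gene, at 66853961 to 66855330. Control 1 ranked it at percentile 60.1, control 2 at 49.5 and mutant 2 at 24.4, and mutant 1 had no call. The deposited enrichment, read as a fold over a background that is not given, stood at 8.99 and 7.95 for the controls and at 6.79 for mutant 2. Both controls thus ranked it higher than mutant 2 did, and mutant 1 did not list it. In mutant 1 the region fell in a gap of 152 kb from which 4 numbers were missing. When each library was cut to its 22959 strongest peaks, this was the single region of the locus held by both controls and by no mutant, at percentiles of 47.5 and 49.5 in the shortened lists. In that setting 2.15% of 29724 regions were of this kind. It was chosen for mention after its values were seen, with 2 libraries per genotype, and no test of it can pass a threshold.

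Other distal regions of Shox2 did not order the genotypes in the same way. The region 150 kb beyond the 3′ end (66821132 to 66821953) had percentiles of 34.7 in control 1, 23.1 in mutant 1 and 34.7 in mutant 2. The region 321 kb beyond it (66650610 to 66651646) stood at 26.9 for control 1, 4.82 for control 2 and 30.7 for mutant 2, where 2 peaks merged into the region and the stronger is given. Control 2 had no call at the region 150 kb away, where control 1 and mutant 2 stood alike. Mutant 1 had no call at the region 321 kb away, where mutant 2 stood above both controls.

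A mutant-only region, held by both mutants and by no control as 4.47% of all regions are, lay 209 kb beyond the 3′ end of Shox2 at 66762288 to 66762940. Its percentile was 7.26 in mutant 1 and 28.5 in mutant 2. Its deposited enrichment was 4.68 and 5.49. It ranked low in mutant 1 and was not mutant-only when each library was cut to its 22959 strongest peaks, where mutant 2 alone kept a peak. In that setting 0 regions of the locus were mutant-only, against 2.39% of all regions.

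The remaining regions of Shox2 were weaker or held by fewer libraries. The region nearest to the gene from outside, 17.9 kb beyond its 3′ end (66953472 to 66954241), had a percentile of 6.47 in control 1 and 39.4 in mutant 2. The region 186 kb away (66785467 to 66786300) had 22.1 in control 1 and 6.59 in mutant 1. Each of these thus paired a control with a mutant library.

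Single libraries held the rest. Control 1 alone held a region 314 kb away (66657823 to 66658365) at percentile 5.07 and another 107 kb away (66864128 to 66864681) at 10.5. Control 2 alone held the region 88.8 kb away (66882603 to 66883201) at 38.9. Mutant 1 alone held the region 159 kb away (66812716 to 66813454) at 7.64, and mutant 2 alone the region 233 kb away (66738139 to 66738776) at 3.19. Except for the region of control 2, these stood near the bottom of their lists.

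**Figure D3:**
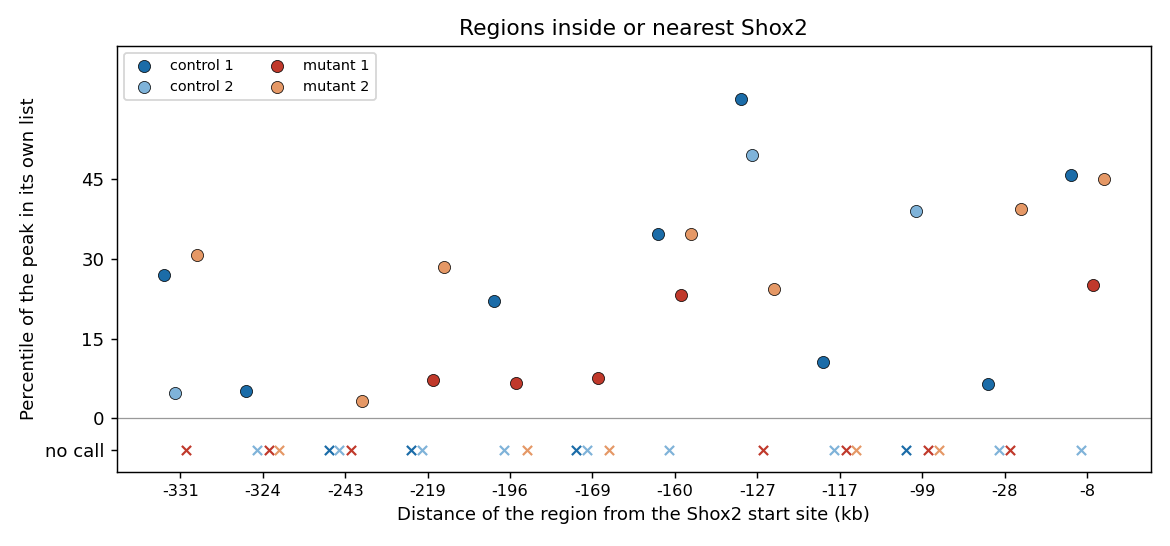
Percentile of the peak in its own list (vertical axis) for the 12 regions inside or nearest Shox2, ordered by distance from its start site in kb, with negative values on the 3′ side. Crosses mark a library without a call. Every region has at least 1 cross, and at −127 kb the controls stand at 60.1 and 49.5 over 24.4 in mutant 2.

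At the other members calls repeated more between libraries. Veph1 (66053558 to 66296974) had 11 regions, of which 5 were held by all 4 libraries, and Ptx3 (66219887 to 66225806) had 1, held by all 4. Rsrc1 (66981364 to 67358403) and Mlf1 (67374097 to 67400000) each had 1 region, held by all 4. The region of Rsrc1 overlapped both of its RefSeq start windows and covered their start sites, 66985662 and 66985967. The gene table begins Rsrc1 earlier, at 66981364, where no library listed a peak. The region of Mlf1 covered its only start window. The 8 shared regions of the locus had summits within 44 to 216 bp of each other, with a median of 118 bp, against 99.0 bp over all shared regions. Their median width was 1050 bp, against 1164 bp over all shared regions and 687 bp for the other regions of the locus. A region spans all its merged peaks, so regions held by more libraries tend to be wider by construction.

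The strongest region of the locus was the start of Mlf1 (67373721 to 67374533). Control 1 ranked it at percentile 90.0, control 2 at 80.3 and either mutant at 89.9. The region at the RefSeq start sites of Rsrc1 (66985439 to 66986334) had 80.2, 74.5, 79.7 and 77.9 in the same order. At both starts the mutant values lay within the range of the controls.

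The region in Ptx3 (66220509 to 66221574) lay inside the gene, 573 bp past its start window. The controls ranked it at 59.9 and 40.5, the mutants at 62.9 and 52.7. A region inside Veph1 (66131140 to 66132173) stood at 75.6 and 53.4 against 66.6 and 64.9. These too overlapped between genotypes.

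In 4 shared regions both mutants ranked above both controls, and all 4 lay on the Veph1 side. Most shared regions lie there, since Veph1 has 5 of the 8 and Ptx3 has 1. The region 77.3 kb from Veph1 in the desert (66373621 to 66375003) stood at percentiles 38.9 and 25.0 in the control lists against 53.5 and 60.8 in the mutant lists, a difference of means of 25.2 points. The region 289 kb from Veph1 (66584863 to 66586680), the shared region closest to Shox2 on that side, had 60.2 and 51.9 against 67.8 and 75.1, a difference of 15.4 points. A region 12.5 kb beyond the 3′ end of Veph1 (66040425 to 66041752) had 56.2 and 42.0 against 61.1 and 71.1, and a region inside Veph1 (66292147 to 66292894) had 55.5 and 40.5 against 57.0 and 62.0.

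Set against the whole series, 4 of 8 shared regions with both mutants higher compares with 29.1% of all 18904 shared regions, and 0 of 8 with both controls higher with 5.62%. Control 2 ranked shared regions lower throughout, with a median percentile of 58.8 over all shared regions against 67.6 to 70.2 in the other libraries. Ranked among the shared regions alone, which removes that shift, the order still separated the genotypes in 4 of 8, all with both mutants higher, against 17.6% of all shared regions. Another 18.0% of all shared regions had both controls higher in that ranking, as 0 of the 8 did. The median percentile of the 8 regions stood at 60.0 and 47.0 for controls against 64.7 and 68.0 for mutants, a difference of 12.9 points (two-sided exact permutation test, p = 0.333, the smallest that 2 against 2 libraries allow). Without control 2 it was 4.71 points, over the 10 regions of the locus that all remaining libraries held, so the sets of regions differ. With the nearest gene of any type, which leaves 5 shared regions, it was 1.26 points. Within the shared regions the same medians were 36.8 and 36.1 against 45.7 and 46.5, a difference of 9.65 points (exact permutation p = 0.333). Ranks in pooled cells cannot tell fewer cells with an open site from less opening per cell.

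**Figure D4:**
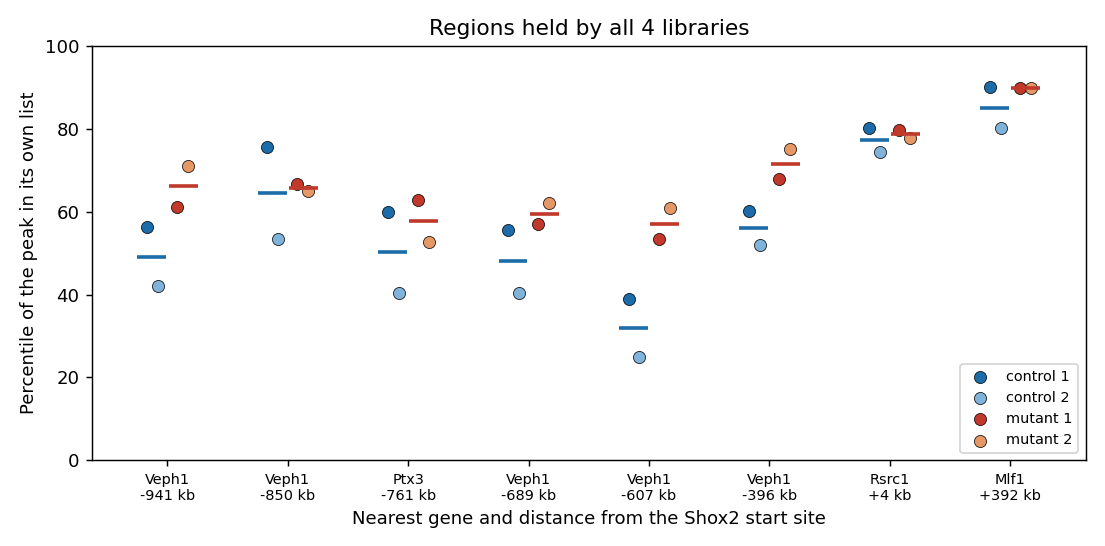
Percentile of the peak in its own list for the 8 regions of the locus held by all 4 libraries, with points for libraries and bars for the mean of each genotype, ordered by distance from the Shox2 start site. Both mutants stand above both controls at −941, −689, −607 and −396 kb, and the genotypes overlap at the other 4.

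The desert between Veph1 and Shox2, 675 kb long, held 16 regions, or 23.7 per Mb, against 16.3 per Mb on chromosome 3 and 15.6 per Mb over all chromosomes. With each library cut to its 22959 strongest peaks the desert kept 8 regions, or 11.9 per Mb, against 11.6 per Mb over all chromosomes, so the higher density was not seen in that setting. Of the 16, 2 were held by all 4 libraries, and both were nearer Veph1. Besides the region of Shox2 described above, the desert held a second mutant-only region, 35.2 kb from Veph1 (66331770 to 66332483), with percentiles of 8.54 and 8.32. The locus as a whole thus had 2 mutant-only regions of 26 (7.69%), against a background of 4.47%, and 0 control-only regions, against 1.07%. Counts this small lie near the background.

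Counted over the whole locus, peaks did not separate the genotypes. Control 1 listed 19 peaks of the locus, control 2 listed 11, mutant 1 listed 15 and mutant 2 listed 18. Per 10000 listed peaks these were 6.29, 4.79, 5.13 and 5.66. The mutant values lay between the control values, with a difference of −0.143 (two-sided exact permutation test, p = 1).

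Rsrc1, although 377 kb long, held no region between these start sites and the start of Mlf1, a stretch of 387 kb. Of 557 protein-coding genes of at least 300 kb, 41 held at most 1 region, and the median was 6 regions. The numbers missing from this stretch were 7 for control 1, 6 for control 2, 11 for mutant 1 and 9 for mutant 2, against medians of 8 to 9 in gaps of like length. In numbered peaks the stretch was thus close to other gaps of its length.

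On the other side of the Rsrc1 start, the 399 kb to the last shared region of the desert held 34 numbered peaks for control 1, 25 for control 2, 25 for mutant 1 and 30 for mutant 2. Of these 8, 3, 5 and 8 were listed. The listed share was also taken over the 1454 kb between the nearest shared regions outside the locus on either side. There 22.4%, 15.5%, 18.3% and 20.0% of numbered peaks were listed, against 27.8%, 23.8%, 25.8% and 26.7% of all numbered peaks. This span reaches beyond the locus, and its first interval held 3 to 6 numbers and no listed peak. The listed share was lower in this span than over all numbered peaks in every library. All 42 cases in which a library lacked a region of the locus fell in a gap from which at least 1 number was missing. The same held for 99.8% of the 45845 such cases over all regions, so this is general to the lists, and no absent call at the locus was shown to be an absent peak.

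**Figure D5:**
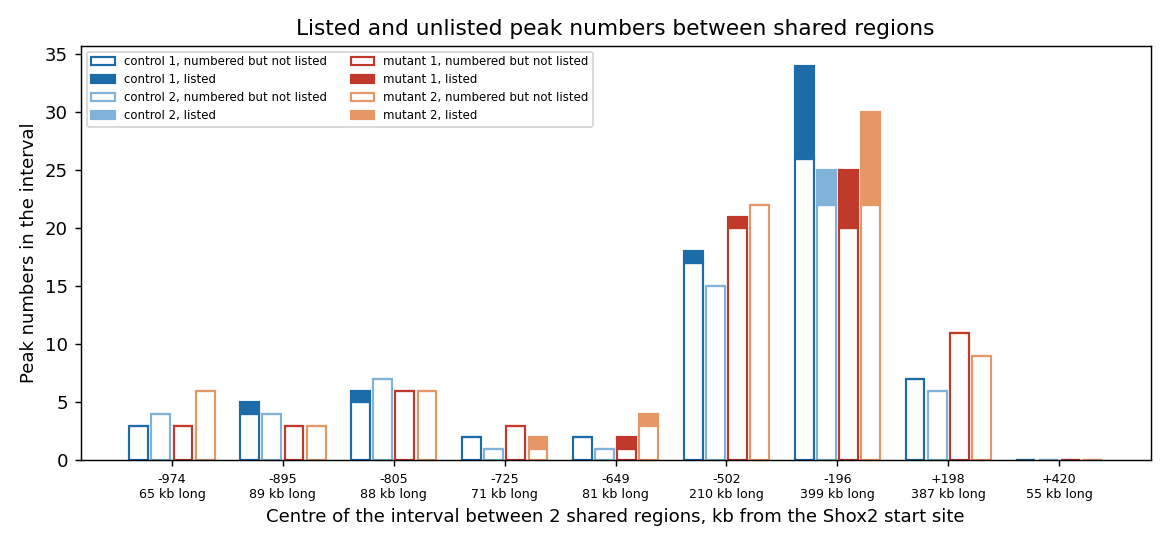
Peak numbers between neighbouring shared regions, by library, with filled bars for listed peaks and open bars for numbers that are not in the lists. Intervals are labelled by the distance of their centre from the Shox2 start site and by their length. The interval of 399 kb on the 3′ side of Shox2 has 25 to 34 numbers and that of 387 kb over Rsrc1 has 6 to 11.

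Shox2 was set beside 47 transcription factor genes of palate mesenchyme and related homeobox genes, counted in the same way. Of these, 45 had at least 1 region, with a median of 5 regions and 1 shared region per gene, and 30.1% of their 296 regions were held by all 4 libraries. Among the 13 without a shared region, Sox9, a master gene of cartilage, had 7 regions, and Tbx2 and Pitx1, a T-box and a homeobox gene, had 5 each. Shox2, with 12 regions, had more than any of these 13.

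Over all protein-coding genes with at least 12 regions, 353 in number, Shox2 was the single gene without a shared region (0.283%). The limit of 12 is that of Shox2 itself. Its count covers the gene and its 3′ side only. It leaves out the shared region counted for Rsrc1, 3.67 kb from the Shox2 start on the other side. At a limit of 10 regions, 2 of 556 genes lacked a shared region, Shox2 and Csl, which is named for its likeness to citrate synthase. At a limit of 8 there were 4 of 917, with Dlgap2, a gene of a synaptic scaffold protein, and Smoc2, a gene of a matricellular protein. The count of regions at Shox2 came from the desert, and within 100 kb of the gene it fell to 3.

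By library, the genes whose peak counts were closest to those of Shox2 were Six2, Zfhx4 and Osr1. Likeness was the Euclidean distance between log2(peak count + 1) over the 4 libraries, and was 0.577, 0.737 and 0.801. Shox2 had 8, 3, 5 and 8 peaks in control 1, control 2, mutant 1 and mutant 2. Six2, a homeobox gene of mesenchymal progenitors, had 6, 4, 4 and 7. Zfhx4, a zinc finger homeobox gene, had 5, 2, 5 and 7, and Osr1, an odd-skipped related gene, had 9, 4, 8 and 11. Of their regions 4 of 8, 2 of 10 and 3 of 14 were shared by all libraries, against 0 of 12 at Shox2. All 4 genes had their fewest peaks in control 2, in Six2 tied with mutant 1 and in Osr1 and Zfhx4 without a tie. Control 2 had the shortest list, and the share of all genes with this order was not counted.

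A list of 28 genes that act with Shox2 in palate, heart or limb had 170 regions, of which 62 were held by all 4 libraries (36.5%, against 47.4% of all regions). Control-only regions numbered 3 (1.76%), at Tbx3, Meis1 and Meis2. Mutant-only regions numbered 10 (5.88%), among them 2 at Bmp2, a bone morphogenetic protein gene. Single ones lay at Shh, Ptch1, Fgf10, Isl1, Meis2 and Runx2. The genotype-specific shares are near the background of 1.07% and 4.47%.

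The label of the cells was checked at start windows present in the table. A region of all 4 libraries overlapped that of 4 of 7 mesenchyme markers (Twist1, Twist2, Col1a2 and Vim, but not Prrx1, Pdgfra or Col3a1), 1 of 6 epithelial markers (Epcam), 1 of 3 endothelial markers (Kdr) and 0 of 4 blood markers. It also overlapped 2 of 4 neuron and glia markers (Tubb3 and Elavl4) and 1 of 4 skeletal muscle markers (Actn2). Over all protein-coding genes with a start window the share was 54.0%. The mesenchyme and the neuron and glia counts lie near that share, so start windows did not set the labelled cell type apart. An open start does not measure expression, and the part of other cells in the values of the locus was not tested.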

How the data were processed

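Per the labels, 2 control and 2 mutant ATAC-seq libraries were grouped by genotype. The authors deposited 1 peak list per library in 10 columns without a header. The build was mm10, per the submitters' processing notes. No aligner, peak caller or filter is named in the labels. The deposited score follows the deposited −log10 p-value times 10, the deposited fold enrichment has no stated background, and the deposited −log10 q-value was not used. These are values of single peaks, used to rank within a list. Without read counts the depth is unknown and no counting error could be given.

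Autosomal and X-linked peaks were merged with Python 3.11.15 and pandas 2.3.3 and assigned by midpoint to the nearest of 21631 protein-coding genes of GRCm38.p6, or to the shortest gene where several overlapped. Merging and assignment were tested on simulated data. Libraries were compared by exact permutation tests. Members of the locus and all gene lists were chosen with earlier results of these data known. The rule for named genes covers all 5 members, every region of Shox2, the other members' start, genotype-specific and highest regions, and the 3 listed genes closest to Shox2 in peak counts. Other regions and genes were named after their values were seen. Alternatives were the upper 50% of each list, equal peak numbers, a stricter merge, other gene limits and leaving out each library. Sequences of distal regions were not analysed here.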

Additional observations from a re-analysis of the deposited data

How the results depend on the processing

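Regions of the locus numbered 26, and 9 in the upper 50% of each list, 15 at equal peak numbers, 14 with a limit of 100 kb, and 11 with the nearest gene of any type. Regions nearest Shox2 numbered 12, and 1, 7, 3 and 2 in the same settings. Control-only regions numbered 0, and 1 at equal peak numbers. Mutant-only regions numbered 2, and 1, 0, 1 and 1 in those settings. Shared regions numbered 8, and 4 in the upper 50% and 5 with genes of any type. Shared regions nearest Shox2 stayed at 0 in all of these. Leaving out each library gave 0 to 5 control-only regions (5 without control 2), 2 to 4 mutant-only regions, 21 to 25 regions in all, 10 to 11 nearest Shox2, 8 to 10 shared, and 0 to 2 shared nearest Shox2. Each such setting asks fewer libraries to agree. Genes with as many regions as Shox2 and none shared numbered 1, and 2 and 4 at limits of 10 and 8 regions, which were chosen after seeing the data, as were the rank among shared regions and the alternatives to the count of shared regions nearest Shox2.

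The difference in peaks per 10000 of −0.143 was 0.863 in the upper 50%, 0 at equal peak numbers and 0.0344 with genes of any type, and ran from −0.891 without control 2 to 0.604 without control 1 (0.118 without mutant 1), so it has no stable sign. The median percentile difference of 12.9 stayed positive, at 8.38 in the upper 50%, 8.23 at equal peak numbers and 1.26 with genes of any type, and from 4.71 without control 2 to 19.4 without control 1. The labels give no link between libraries of the same replicate number beyond that number. Over 18904 shared regions the differences between replicates correlated at 0.027 across genotypes. A batch that shifts whole lists or differs by genotype would not show in this value and was not tested. With the replicate block the differences were −0.143 and 12.9 (exact sign-flip p = 1 and 0.500, the latter the smallest 2 pairs allow). No test here could pass a threshold, and unknown read depth limits every absence.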
